A study of Mus musculus with 10 samples.

Results

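The replication-dependent histone genes are the clustered genes that supply most of the histone protein of dividing cells. In the count table they were the rows whose GENCODE M21 symbol begins with Hist1h, Hist2h, Hist3h or Hist4h and whose biotype is protein coding, which gave 67 of 57010 genes. By the protein they encode there were 6 linker histone H1 genes, 18 H2A genes, 18 H2B genes, 12 H3 genes and 13 H4 genes. By position 54 lay in the Hist1 clusters on chromosome 13, 10 in the Hist2 cluster on chromosome 3, 2 at Hist3 on chromosome 11 and 1, Hist4h4, on chromosome 6. RNA was sequenced from retinas of 10 mice, which were 6 to 8 weeks old. In each group 5 mice had received an intravitreal injection, into the gel-filled chamber in front of the retina, and the retinas were taken 14 days later. One group received AAV2-GFP and the other AAV206-GFP, so every mouse carried an adeno-associated virus vector named for green fluorescent protein. No group without a vector was analysed here, so lower, fell, higher and rose describe AAV206-GFP relative to AAV2-GFP. A fall with AAV206-GFP and a rise with AAV2-GFP cannot be told apart. AAV2 is a serotype often used to reach the inner retina, and the series title concerns a vector for the retinal pigment epithelium, the cell layer behind the photoreceptors. The labels give no strain, sex, vector dose, transgene promoter or sequencing batch, and do not say how AAV206 was made. Each library is labelled as a numbered retina sample of its group, and nothing further says how the samples were kept apart, so p-values measure the spread between these samples.

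Core histones H2A, H2B, H3 and H4 form the protein spool around which DNA is wound in the nucleosome, and linker histone H1 binds the DNA where it enters and leaves the spool. The clustered genes are transcribed mainly in S phase, when new DNA must be packaged. Their messenger RNAs usually lack introns and end in a stem-loop, bound by the protein SLBP, in place of a poly(A) tail. In cells that have stopped dividing, as retinal neurons have, some of these genes are known also to give longer RNAs that run past the stem-loop and carry a poly(A) tail, while replacement histones such as H3.3, encoded outside the clusters, become the main supply.

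The stem-loop is shown because it separates these genes from nearly all others and because the annotated RNA end relative to it differed among the members. A search of the sense strand of annotated 3' untranslated regions for the histone stem-loop consensus found it in 46 of 67 members (68.7%) and in 16 of 21763 other genes with a coding transcript (0.0735%). Examples from members of each family with lower levels in AAV206-GFP retinas follow, 5' to 3', from GENCODE M21 transcripts on GRCm38, with the 16 bases of the stem-loop in capitals and 5 bases on each side.
Hist1h1c (chr13:23739507-23739532, plus strand): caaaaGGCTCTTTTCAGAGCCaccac
Hist3h2a (chr11:58955167-58955192, plus strand): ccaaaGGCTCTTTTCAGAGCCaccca
Hist1h2be (chr13:23585526-23585551, minus strand): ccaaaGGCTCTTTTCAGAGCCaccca
Hist2h3c2 (chr3:96238480-96238505, minus strand): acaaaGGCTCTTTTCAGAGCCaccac
Hist1h4i (chr13:22040961-22040986, minus strand): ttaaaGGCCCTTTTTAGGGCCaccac
Hist4h4 (chr6:136803993-136804018, minus strand): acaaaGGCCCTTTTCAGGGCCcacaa
The H1, H2A, H2B and H3 examples share one 16-base sequence, and each of the H4 examples has another.

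The members seen in these libraries were mostly those with an annotated RNA end beyond the stem-loop. Of the 24 members whose annotated end lay more than 60 bases past the stem-loop, 14 had enough counts to be tested, and the 24 held 68.3% of all counts of the members. Of the 22 whose annotated end lay within 60 bases of it, 2 were tested (Hist1h2ad and Hist2h2aa2), and the 22 held 8.19% of the counts. Another 5 members had an annotated 3' untranslated region of at least 40 bases without the consensus, among them the abundant Hist1h2bc and Hist2h2be, and held 23.0% of the counts. The remaining 16 had a 3' untranslated region under 40 bases in the annotation and held 0.421%. Longer RNAs collect more reads, so the same genes were also compared per kilobase of annotated exon, where the AAV2-GFP medians were 2.28, 0.143, 1.41 and 0.0806 CPM per kb in the same order (CPM is the counts-per-million level, on library sizes scaled by the trimmed mean of M values). The summed level with AAV206-GFP was 46.9%, 48.4%, 50.8% and 36.5% of that with AAV2-GFP in these 4 classes. The labels name the library kit but not whether RNA with a poly(A) tail was selected. Of 12 listed RNAs that end without a tail 9 had a row. Of these, 6 (such as Rmrp and Rnu7) were at 0 in all 10 libraries, and 2 were tested. All 789 rows of small nuclear RNAs and 1060 of 1065 of small nucleolar RNAs were also at 0. Such zeros cannot tell a selection for poly(A) tails from a loss of short RNAs. The list summed to 1007 to 2445 CPM with AAV2-GFP and 1330 to 2031 CPM with AAV206-GFP. Malat1 and Neat1, long nuclear RNAs, had log2 fold changes of 0.16 and -0.29, neither past the threshold. Whether a loss of RNAs that end at the stem-loop bears on the histone levels was not tested.

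**Figure D1:**
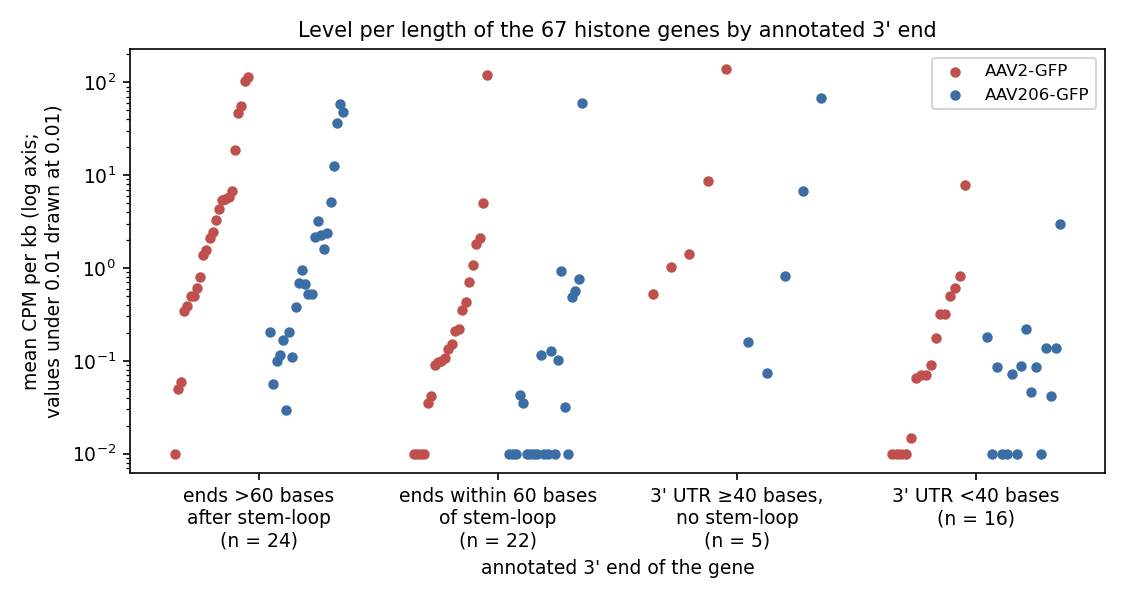
Mean level of each of the 67 histone genes in CPM per kilobase of annotated exon (log axis), by the annotated 3' end of the gene, with AAV2-GFP in red and AAV206-GFP in blue. Points are genes ordered by their AAV2-GFP level; most of the 22 genes that end within 60 bases of the stem-loop sit below 1 CPM per kb.

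Total counts ranged from 10989843 to 12752604 per library, so that 3 counts correspond to 0.235 to 0.273 CPM, a floor that covers counting error only. The 6 cone photoreceptor markers summed to 987 to 1048 CPM with AAV2-GFP and 1054 to 1098 CPM with AAV206-GFP, without overlap, and 2 of them rose (Opn1mw by 0.47 and Gnat2 by 0.24 on the log2 scale, edgeR adjusted p = 0.000881 and 0.0123). Among other retinal markers Pou4f1 (ganglion cells), Grm6 (bipolar cells) and Rgr (pigment epithelium) fell, at -0.37, -0.66 and -0.79 on the log2 scale (edgeR adjusted p = 0.00623, 0.00225 and 0.0328). All 7 tested microglia and macrophage markers had negative log2 fold changes, with a median of -1.20, and 1 of them, C1qa, passed (-2.22, edgeR adjusted p = 0.0326). Without AAV2-GFP mouse 1 the median of these 7 was -0.50, 6 were negative and 0 passed with edgeR (3 at an unadjusted p-value under 0.05). The tested histone genes had a median of -1.05 in that fit, and the part of microglia in this value was not tested. Marker lists of lens, red blood cells and endothelium also differed. Of 5 lens genes 2 were tested and both fell with AAV206-GFP, with list sums of 10.2 to 31.5 CPM against 0.182 to 10.3 CPM and Lim2 at 0 in every library. Of 5 erythroid genes 4 were higher, with sums of 67.8 to 85.8 CPM against 101 to 319 CPM, and of 5 endothelial genes 2 were lower, with sums of 188 to 206 CPM against 152 to 175 CPM. Their part in the histone differences was not tested, and in bulk tissue fewer cells of a type and less RNA per cell cannot be told apart.

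The summed level of the replication-dependent histone genes was lower in AAV206-GFP retinas in every family. It was 27.1% of the AAV2-GFP level for H3, 34.2% for H4, 41.1% for H1, 51.7% for H2B and 54.2% for H2A. Summed over the 67 genes, the level was 1081, 712, 870.1, 789 and 760.3 CPM in AAV2-GFP mice 1 to 5 and 339.6, 386, 406, 373 and 512 CPM in AAV206-GFP mice 1 to 5. All AAV2-GFP mice lay above all AAV206-GFP mice. The 5 genes with the highest AAV2-GFP means held 79.9% of the sum with AAV2-GFP and 80.2% with AAV206-GFP, so the sum mostly describes these. The AAV206-GFP mean was 47.9% of the AAV2-GFP mean, or 842 ± 145 against 403 ± 65.3 CPM (SD, n = 5), a log2 ratio of -1.06. The H1 genes summed to 254, 167, 192, 182 and 177 CPM in AAV2-GFP mice 1 to 5 and 67.8, 80.4, 76.5, 78.2 and 96.2 CPM in AAV206-GFP mice 1 to 5. The means were 194 ± 34.3 against 79.8 ± 10.3 CPM (SD, n = 5), a log2 ratio of -1.28, and the mice did not overlap. The H3 genes showed the largest relative difference of the 5 families, with 85.3, 43.4, 47.1, 47.9 and 45.8 CPM in AAV2-GFP mice 1 to 5 and 10.3, 12.1, 14, 13.4 and 23.3 CPM in AAV206-GFP mice 1 to 5. Their means were 53.9 ± 17.6 against 14.6 ± 5.04 CPM (SD, n = 5), a log2 ratio of -1.88, and here too every AAV2-GFP mouse was above every AAV206-GFP mouse. For H2A the means were 305 ± 41.2 against 165 ± 36.8 CPM (SD, n = 5), a log2 ratio of -0.88, for H2B 255 ± 38.4 against 132 ± 15.5 CPM (SD, n = 5), a log2 ratio of -0.95, and for H4 34.2 ± 18.6 against 11.7 ± 2.54 CPM (SD, n = 5), a log2 ratio of -1.55. No family overlapped between the groups, although in H4 a single mouse, AAV2-GFP mouse 1 at 67.1 CPM, raised the mean and SD of its group; without it the H4 log2 ratio was -1.15. These sums are descriptions without a test.

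**Figure D2:**
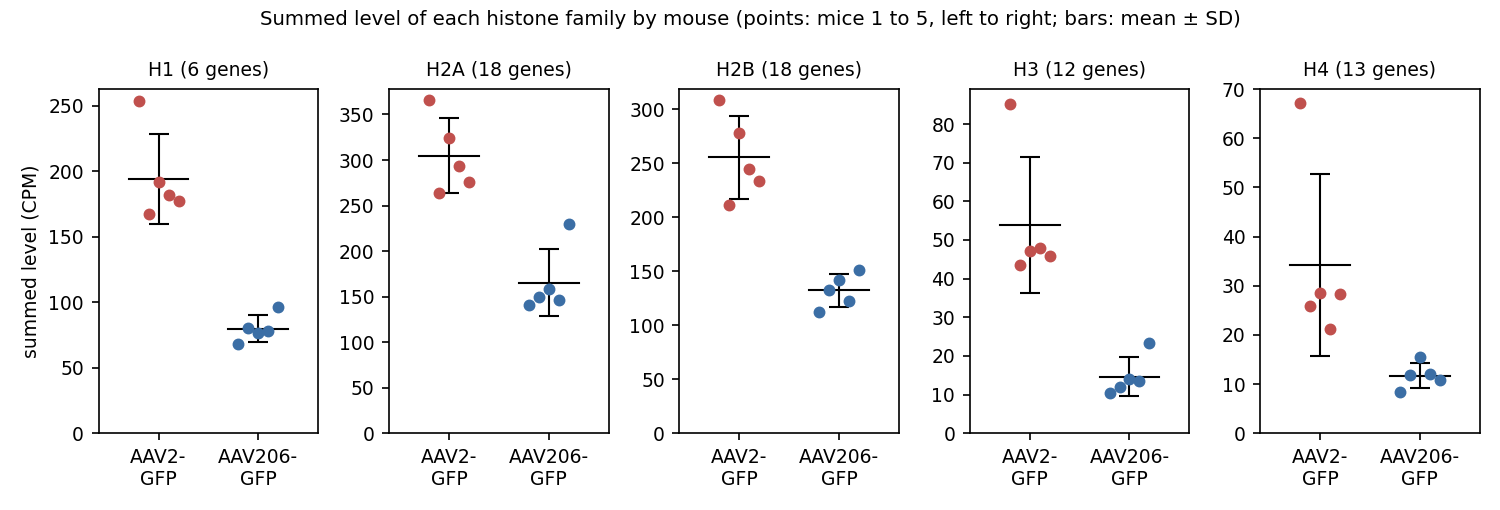
Summed level in CPM of the genes of each histone family in every mouse; points are mice 1 to 5 from left to right in each group, and bars are the mean ± SD. In each panel the 5 AAV206-GFP mice lie below the 5 AAV2-GFP mice.

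Gene by gene, 14 histone genes fell with AAV206-GFP, none rose, and the decreases reached all 5 families. Of the 67 members 19 passed the filter on low counts and were tested with edgeR, 14 had an adjusted p-value under 0.05 as lower, and 0 as higher (0 also with DESeq2 and limma-voom, and all 19 log2 fold changes were negative with each of these 3 tools). Over all 15539 genes tested, 5.3% passed as lower and 5.95% as higher, 11.2% in either direction. An unadjusted p-value under 0.05 was reached by 18 of the 19. A gene that is abundant in 1 group only can pass the filter through that group, so the members were also counted by whether they exceeded the filter's level of 0.857 CPM in all 10 libraries. That held for 15 members, of which 12 were lower; 2 of the other 4, Hist1h1d and Hist1h3d, were lower too. The groups did not overlap in 13 tested members, against 4.37% of all genes tested as lower without overlap. At least a 2-fold decrease past the threshold was seen in 9 members, against 0.669% of all genes tested. The median log2 fold change of the 19 was -1.24, against -0.0095 over all genes tested. Without AAV2-GFP mouse 1, 13 of 19 tested members were lower (5.8% of all genes tested), and without AAV2-GFP mice 1 and 4, an alternative taken over from earlier work on these data, 14 of 22 tested members were lower (2.85%).

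**Figure D3:**
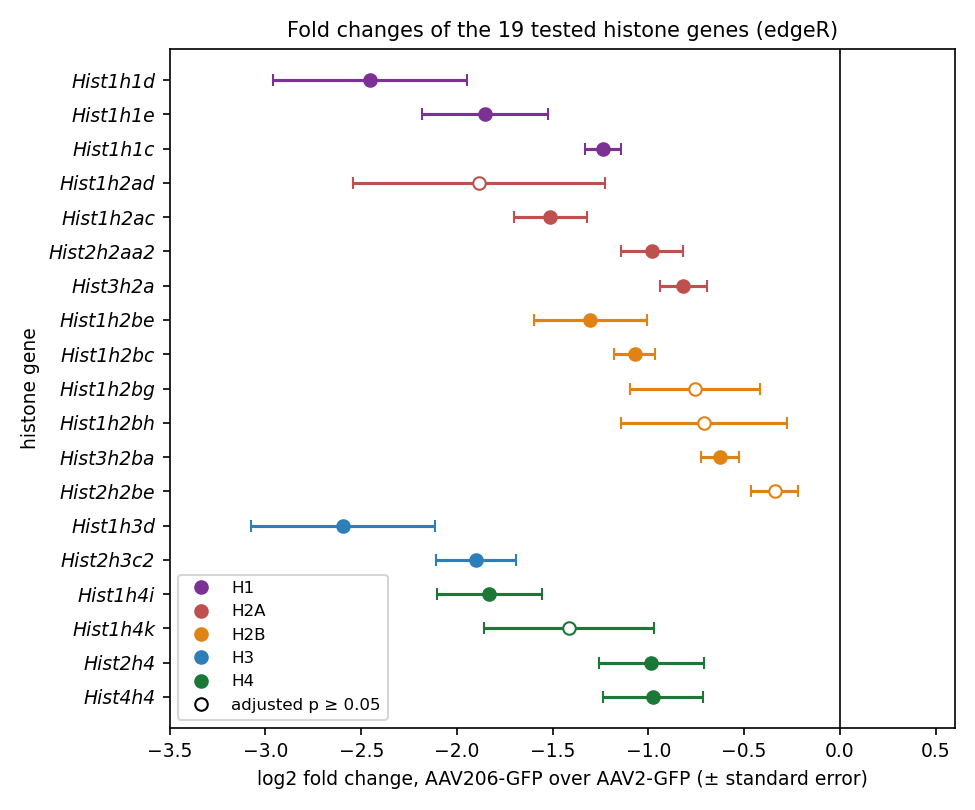
Log2 fold change of AAV206-GFP over AAV2-GFP with its standard error for the 19 tested histone genes, coloured by family; open symbols did not pass an adjusted p-value of 0.05. All 19 lie left of 0, from -2.60 for Hist1h3d to -0.34 for Hist2h2be.

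Linker histones were led by Hist1h1c (ENSMUSG00000036181, chr13:23738808-23740367, plus strand), which encodes H1.2 and is an H1 gene expressed in many non-dividing tissues. Hist1h1c measured 217, 155, 181, 169 and 163 CPM in AAV2-GFP mice 1 to 5 and 65, 75.5, 73.1, 73.2 and 88.6 CPM in AAV206-GFP mice 1 to 5. The AAV2-GFP mice lay above the AAV206-GFP mice without overlap. Hist1h1c fell from a mean of 177 ± 24.3 CPM to 75.1 ± 8.56 CPM (SD, n = 5; -1.24 on the log2 scale, standard error 0.09, edgeR adjusted p = 1.13e-06). Its counts were whole numbers in all libraries. Hist1h1e (H1.4) followed the same order. Hist1h1e measured 21.3, 7.42, 7.69, 9.46 and 10.4 CPM in AAV2-GFP mice 1 to 5 and 2.03, 3.13, 1.8, 2.9 and 5.69 CPM in AAV206-GFP mice 1 to 5. Hist1h1e fell from a mean of 11.2 ± 5.75 CPM to 3.11 ± 1.55 CPM (SD, n = 5; -1.85 on the log2 scale, standard error 0.33, edgeR adjusted p = 0.00219), but its annotated span overlaps that of Hist1h2be on the same strand and decimals were present in each of the 10 libraries, which leaves its level uncertain. Hist1h1d measured 11.9, 3.23, 2.63, 3.39 and 1.62 CPM in AAV2-GFP mice 1 to 5 and 0.337, 1.09, 0.776, 0.718 and 1.19 CPM in AAV206-GFP mice 1 to 5. Hist1h1d (H1.3) was low in every mouse but AAV2-GFP mouse 1, and the groups still did not overlap. Hist1h1d fell from a mean of 4.56 ± 4.18 CPM to 0.822 ± 0.338 CPM (SD, n = 5; -2.45 on the log2 scale, standard error 0.51, edgeR adjusted p = 0.00593); without AAV2-GFP mouse 1 the log2 fold change was -1.71. The other 3 H1 genes, Hist1h1a, Hist1h1b and the testis gene Hist1h1t, had group means of at most 1.05 CPM and were not tested.

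Among H2A genes, Hist3h2a (ENSMUSG00000078851, chr11:58954685-58956830, plus strand) had the most counts. Hist3h2a measured 253, 186, 251, 219 and 205 CPM in AAV2-GFP mice 1 to 5 and 109, 116, 121, 110.1 and 175 CPM in AAV206-GFP mice 1 to 5. AAV206-GFP mouse 5 stood above the other mice of its group but below every AAV2-GFP mouse. Hist3h2a fell from a mean of 223 ± 29 CPM to 126 ± 27.7 CPM (SD, n = 5; -0.82 on the log2 scale, standard error 0.12, edgeR adjusted p = 0.000559). It carried decimals in all 10 libraries and its annotated span overlaps Trim17 on the same strand. Hist2h2aa2 measured 87.7, 58.2, 55.7, 57 and 55.3 CPM in AAV2-GFP mice 1 to 5 and 26.4, 26.3, 29.1, 28.8 and 47.9 CPM in AAV206-GFP mice 1 to 5. Here AAV2-GFP mouse 1 was high in its group and AAV206-GFP mouse 5 in its own, without overlap. Hist2h2aa2 fell from a mean of 62.8 ± 14 CPM to 31.7 ± 9.16 CPM (SD, n = 5; -0.98 on the log2 scale, standard error 0.16, edgeR adjusted p = 0.00135). It is a near-identical copy of Hist2h2aa1, so the pair was also summed, which gave 63 ± 13.8 against 32.3 ± 8.86 CPM (SD, n = 5), a log2 ratio of -0.97. Hist1h2ac measured 21.6, 18.1, 16.1, 15 and 13.5 CPM in AAV2-GFP mice 1 to 5 and 3.2, 5.84, 6.73, 7.18 and 6.61 CPM in AAV206-GFP mice 1 to 5. The 2 groups of Hist1h2ac were separated by a wide gap. Hist1h2ac fell from a mean of 16.9 ± 3.14 CPM to 5.91 ± 1.59 CPM (SD, n = 5; -1.51 on the log2 scale, standard error 0.19, edgeR adjusted p = 0.00013). Hist1h2ad did not pass (log2 fold change -1.88, standard error 0.66, edgeR adjusted p = 0.0743), with AAV206-GFP values from 0 to 1.00 CPM.

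Of 6 tested H2B genes 3 fell and 3 did not pass. Hist1h2bc measured 173, 139, 183, 164 and 156 CPM in AAV2-GFP mice 1 to 5 and 65.7, 79.3, 82.3, 63 and 97.9 CPM in AAV206-GFP mice 1 to 5. Hist1h2bc (ENSMUSG00000018102, chr13:23684199-23692908, plus strand) lies head to head with Hist1h2ac on the opposite strand. Its counts carried decimals in all 10 libraries. Hist1h2bc fell from a mean of 163 ± 16.7 CPM to 77.6 ± 14.1 CPM (SD, n = 5; -1.07 on the log2 scale, standard error 0.11, edgeR adjusted p = 2.16e-05), with no overlap. Hist1h2be measured 47.8, 17.1, 20.2, 19 and 19.2 CPM in AAV2-GFP mice 1 to 5 and 4.45, 9.08, 10.3, 13.6 and 12.5 CPM in AAV206-GFP mice 1 to 5. AAV2-GFP mouse 1 was more than 2 times any other mouse for Hist1h2be, and the remaining AAV2-GFP mice still lay above all AAV206-GFP mice. Decimals were present in all 10 libraries for Hist1h2be too, and its annotated span overlaps Hist1h1e on the same strand. Hist1h2be fell from a mean of 24.7 ± 13 CPM to 9.99 ± 3.57 CPM (SD, n = 5; -1.30 on the log2 scale, standard error 0.29, edgeR adjusted p = 0.0106); without AAV2-GFP mouse 1 the log2 fold change was -0.92. Hist3h2ba measured 36.6, 28.9, 42.2, 34.6 and 29.2 CPM in AAV2-GFP mice 1 to 5 and 22.3, 22.9, 22.8, 21.5 and 21.8 CPM in AAV206-GFP mice 1 to 5. The AAV206-GFP mice were close together for Hist3h2ba (coefficient of variation 2.67%), and all were below the AAV2-GFP mice. Hist3h2ba fell from a mean of 34.3 ± 5.54 CPM to 22.3 ± 0.595 CPM (SD, n = 5; -0.63 on the log2 scale, standard error 0.10, edgeR adjusted p = 0.00105), with whole counts in every library. Hist2h2be measured 27.1, 18.6, 25.4, 20.5 and 21.1 CPM in AAV2-GFP mice 1 to 5 and 15.5, 18.1, 20.2, 20.2 and 15.2 CPM in AAV206-GFP mice 1 to 5. Hist2h2be, one of the 5 members with an untranslated region but no stem-loop consensus, overlapped between the groups and did not pass (-0.34 on the log2 scale, standard error 0.12, edgeR adjusted p = 0.0823). Hist1h2bg and Hist1h2bh also overlapped. Neither passed, at -0.76 (edgeR adjusted p = 0.16) and -0.71 (adjusted p = 0.3) on the log2 scale. For Hist1h2bh the value was -0.12 without AAV2-GFP mouse 1.

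Among the replication-dependent H3 genes, most counts came from Hist2h3c2 (ENSMUSG00000081058, chr3:96238108-96239127, minus strand). Hist2h3c2 measured 69.2, 38.6, 43.5, 44.3 and 41.8 CPM in AAV2-GFP mice 1 to 5 and 8.98, 11.2, 12.2, 9.68 and 21.3 CPM in AAV206-GFP mice 1 to 5. Every AAV2-GFP mouse was above every AAV206-GFP mouse, in which mouse 5 was the highest. Hist2h3c2 fell from a mean of 47.5 ± 12.3 CPM to 12.7 ± 5 CPM (SD, n = 5; -1.90 on the log2 scale, standard error 0.21, edgeR adjusted p = 3.67e-05). Its counts carried decimals in all 10 libraries, and with its near-identical copy Hist2h3c1 added, which drew counts in a single AAV206-GFP library, the values were 47.5 ± 12.3 against 13.1 ± 4.79 CPM (SD, n = 5), a log2 ratio of -1.86. Hist1h3d measured 10.5, 3.32, 2.24, 2.07 and 2.26 CPM in AAV2-GFP mice 1 to 5 and 0.723, 0.547, 0.452, 0.718 and 0.848 CPM in AAV206-GFP mice 1 to 5. For Hist1h3d the AAV206-GFP mice were all under 1 CPM and AAV2-GFP mouse 1 was far above the rest. Hist1h3d fell from a mean of 4.07 ± 3.6 CPM to 0.657 ± 0.157 CPM (SD, n = 5; -2.60 on the log2 scale, standard error 0.48, edgeR adjusted p = 0.00285); without AAV2-GFP mouse 1 the log2 fold change was -1.88. The other 10 H3 genes were not tested, with group means of at most 0.675 CPM.

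For H4, Hist1h4i (ENSMUSG00000060639, chr13:22040636-22041362, minus strand) carried the most counts. Hist1h4i measured 22.5, 9.88, 13.6, 8.87 and 12.6 CPM in AAV2-GFP mice 1 to 5 and 2.69, 2.74, 6.3, 4.04 and 3.14 CPM in AAV206-GFP mice 1 to 5. All AAV2-GFP mice were above all AAV206-GFP mice. Hist1h4i fell from a mean of 13.5 ± 5.4 CPM to 3.78 ± 1.51 CPM (SD, n = 5; -1.83 on the log2 scale, standard error 0.27, edgeR adjusted p = 0.000572), with whole counts in every library. Hist2h4 measured 13.2, 6.2, 4.64, 5.16 and 6.07 CPM in AAV2-GFP mice 1 to 5 and 2.86, 4.2, 4.23, 3.86 and 2.63 CPM in AAV206-GFP mice 1 to 5. Hist2h4 did not overlap, by a small margin. Hist2h4 fell from a mean of 7.05 ± 3.5 CPM to 3.55 ± 0.757 CPM (SD, n = 5; -0.98 on the log2 scale, standard error 0.27, edgeR adjusted p = 0.0307), but the call rested on single libraries: it was kept in 5 of 10 fits that left out 1 library and lost without AAV2-GFP mouse 1 (log2 fold change -0.63, edgeR adjusted p = 0.0564) or without AAV206-GFP mouse 1, 2, 4 or 5 (adjusted p = 0.0508 to 0.0679). Hist4h4 measured 5.06, 4.85, 3.33, 2.26 and 4.19 CPM in AAV2-GFP mice 1 to 5 and 1.35, 2.1, 1.9, 2.33 and 2.29 CPM in AAV206-GFP mice 1 to 5. Hist4h4 overlapped in 1 AAV2-GFP mouse, mouse 4. Hist4h4 fell from a mean of 3.94 ± 1.16 CPM to 1.99 ± 0.4 CPM (SD, n = 5; -0.98 on the log2 scale, standard error 0.26, edgeR adjusted p = 0.0259), and this call too was lost without AAV2-GFP mouse 2 or 5 or AAV206-GFP mouse 1, 2 or 3 (edgeR adjusted p = 0.0509 to 0.057). Hist1h4k did not pass (-1.41 on the log2 scale, standard error 0.44, edgeR adjusted p = 0.0507), and its adjusted p over the alternatives ran from 0.0195 with DESeq2 to 0.226 without AAV2-GFP mice 1 and 4.

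**Figure D4:**
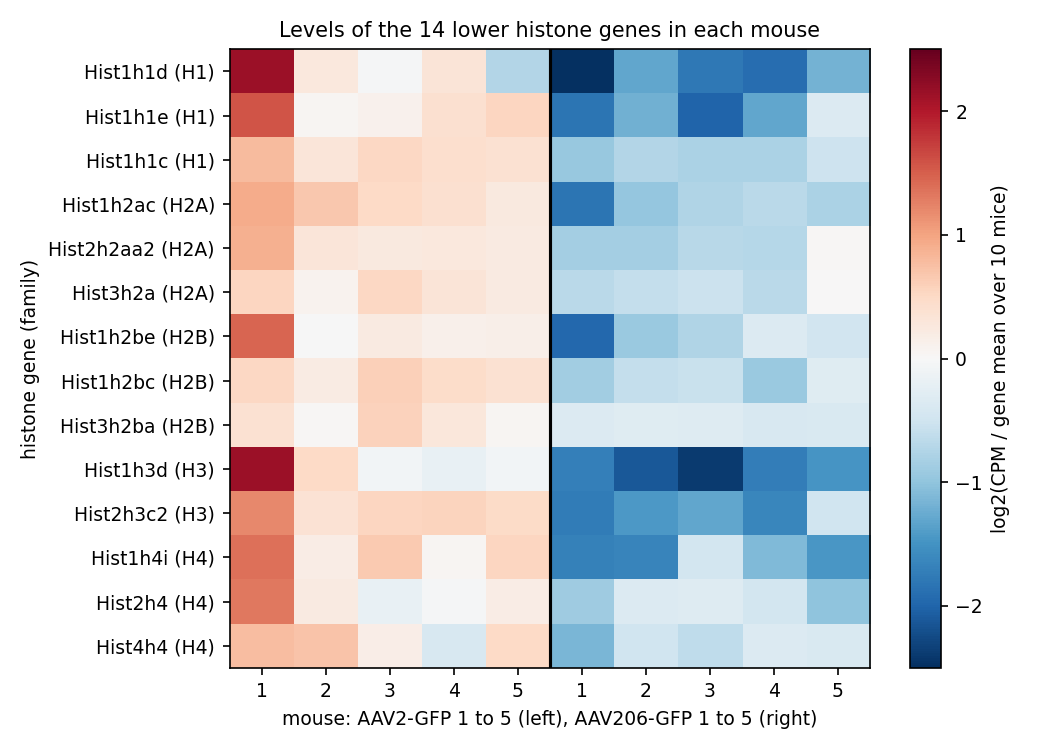
Level of each of the 14 lower histone genes in each mouse, as log2 of the CPM over the gene's mean in 10 mice (red above, blue below the mean), with AAV2-GFP mice 1 to 5 left of the line and AAV206-GFP mice 1 to 5 right of it. AAV2-GFP mouse 1 is the darkest red column, with Hist1h3d at 10.5 CPM.

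Below the filter, 48 members were not tested, of which 5 had no count in any library. Their group means were at most 2.37 CPM. Summed over the 48, the level was 44.2, 10.2, 9.85, 8.22 and 11.9 CPM in AAV2-GFP mice 1 to 5 and 4.94, 4.10, 6.27, 6.86 and 3.82 CPM in AAV206-GFP mice 1 to 5. The mice did not overlap, and most of the difference in means came from AAV2-GFP mouse 1. The mean was lower with AAV206-GFP in 31 of these genes and higher in 12. The same count over all genes under the filter was not made, so these directions are a description only. Hist1h4m, an example chosen after its values were seen, had 3 to 9 counts in each AAV2-GFP library and 0 in each AAV206-GFP library. When the filter was dropped, 61 members were tested and 19 passed, all lower, beside 3.42% of all 28442 genes lower in that fit. This added Hist1h2br, Hist1h4c, Hist1h4h, Hist1h4k and Hist1h4m to the 14, each with its highest level in AAV2-GFP mouse 1. Hist1h2br, Hist1h4c and Hist1h4h were at 6.94, 5.09 and 7.85 CPM there. In the other AAV2-GFP mice they were at most 1.97, 1.95 and 1.33 CPM.

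The mice differed more among themselves with AAV2-GFP, and 1 mouse stood apart. AAV2-GFP mouse 1 was the highest of its group in 17 of 19 tested members, at a median of 2.00 times the mean of the other 4. The median coefficient of variation of the 19 was 40.04% in the AAV2-GFP group, 13.5% without that mouse, and 28.9% in the AAV206-GFP group. In the AAV206-GFP group mouse 5 was the highest in 10 members and mouse 1 the lowest in 9. In AAV2-GFP mouse 1 all 9 T and NK lymphocyte markers were at their highest of the 10 libraries and none was at 0, with a sum of 23.2 CPM against 0.449 to 1.29 CPM in the other AAV2-GFP mice and 0.848 to 1.35 CPM with AAV206-GFP. All 8 microglia and macrophage markers were also highest there (183 CPM in sum against 21.7 to 37.1 CPM in the rest of the group and 17.9 to 23.9 CPM with AAV206-GFP), as were 21 of 50 cell cycle genes (449.7 CPM in sum against 350.1 to 383 CPM and 357 to 378 CPM), and 4 of 4 B cell markers (4.25 CPM against at most 0.898 CPM in any other library). The part of these cells in the high values of mouse 1 was not tested. The share of all genes highest in that mouse was not counted, so the counts of genes highest there are a description. The group difference without that mouse is given above.

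Decimals, which estimated counts show where reads are shared between genes, were present in at least 1 library in 38 of the 67 members, and these held 68.5% of the members' counts. Of the 7 tested members with whole counts in every library, 6 were lower with AAV206-GFP, at a median log2 fold change of -0.98, and of the 12 with decimals 8 were lower, at a median of -1.36. The H1 sum rested mainly on whole counts (15221 of 16056). For H2B the members with whole counts held 5688 of 22717 counts. Their sum alone gave a log2 ratio of -0.51, against -0.95 over all H2B genes. For H2A and H3 the members with whole counts held only 17 and 26 counts over all libraries, and their sums alone gave log2 ratios of -0.17 and -2.96.

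Decreases were found at every locus. In the Hist1 clusters 8 of 12 tested members were lower, at Hist2 3 of 4, at Hist3 both, and the single Hist4 gene. Over all genes tested 5.3% were lower. At Hist4 this rested on Hist4h4 alone, whose groups overlapped and whose call was kept in 5 of 10 fits that left out 1 library. Genes of other kinds lie between the histone genes. Of 9 protein-coding non-histone genes between the first and last member of each cluster 7 were tested and 1 passed with edgeR, as higher (0 were lower at an unadjusted p-value under 0.05 and 0 with DESeq2 and limma-voom). That gene was Hfe, an iron metabolism gene inside the Hist1 cluster, which rose from a mean of 15.1 ± 1.5 CPM to 20.2 ± 3.14 CPM (SD, n = 5; 0.42 on the log2 scale, standard error 0.12, edgeR adjusted p = 0.0313), kept in 5 of 10 fits that left out 1 library. The median log2 fold change of the 7 was 0.076.

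Promoters of 3 lower members are shown because they moved together and because histone promoters are known for a few shared motifs. The table of RefSeq promoters (GRCm38.p6, 250 bases before to 50 after each start) held 63 promoters for 62 of the 67 members. The letters CCAAT, on either strand, were in 54 of 63 member promoters (85.7%) against 37.4% of all 32851 promoters; TATAAA was in 35 (55.6%) against 13.6%; and the octamer ATTTGCAT was in 14 (22.2%) against 1.74%. The octamer was in 7 of 18 H2A and 7 of 17 H2B promoters and in none of the H1, H3 and H4 promoters. Windows of some neighbouring H2A and H2B genes on opposite strands overlap, such as Hist1h2aa and Hist1h2ba. The same match is then counted in both promoters, so the matches are not independent. CCAAT was in 3 of 12 H4 promoters and in all promoters of the other families. Matches to these 3 motifs, which may overlap, are in capitals on either strand, 5' to 3'.
Hist1h1c (chr13:23738557-23738856, plus strand): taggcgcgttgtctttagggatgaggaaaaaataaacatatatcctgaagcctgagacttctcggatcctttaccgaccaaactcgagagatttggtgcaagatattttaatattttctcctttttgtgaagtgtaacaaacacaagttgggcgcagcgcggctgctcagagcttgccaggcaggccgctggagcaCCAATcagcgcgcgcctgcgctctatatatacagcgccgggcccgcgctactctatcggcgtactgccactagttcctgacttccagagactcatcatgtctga
Hist1h2ac (chr13:23683910-23684209, minus strand): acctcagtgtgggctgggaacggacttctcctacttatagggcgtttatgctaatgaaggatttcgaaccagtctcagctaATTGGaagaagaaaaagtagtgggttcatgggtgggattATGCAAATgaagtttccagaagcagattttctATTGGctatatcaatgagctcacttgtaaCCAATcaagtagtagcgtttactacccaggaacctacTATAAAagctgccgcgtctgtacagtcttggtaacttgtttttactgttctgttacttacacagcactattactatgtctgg
Hist3h2a (chr11:58954435-58954734, plus strand): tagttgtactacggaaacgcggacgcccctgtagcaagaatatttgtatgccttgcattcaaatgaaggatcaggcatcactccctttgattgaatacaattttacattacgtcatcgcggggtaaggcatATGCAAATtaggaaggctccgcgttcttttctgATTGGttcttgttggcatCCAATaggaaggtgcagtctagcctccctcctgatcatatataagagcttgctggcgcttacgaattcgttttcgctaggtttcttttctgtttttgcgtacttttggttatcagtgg
Among the tested members, CCAAT was in 11 of 13 promoters of lower genes and 3 of 4 of the others, TATAAA in 6 of 13 and 3 of 4, and the octamer in 3 of 13 and 1 of 4. With so few genes not past the threshold these shares are a description. The Hist1h2ac window also holds the start of Hist1h2bc on the opposite strand.

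Of the 14 listed histone genes outside the clusters, most of which supply replacement histones, 11 were tested and 4 passed, all of them lower. That is 36.4%, beside 5.3% of all genes tested that passed as lower and 11.2% in either direction. The median log2 fold change of the 11 was -0.20. H2afj measured 26.7, 26.9, 42.9, 33.5 and 29.6 CPM in AAV2-GFP mice 1 to 5 and 20.1, 16.1, 18.9, 13.9 and 22.4 CPM in AAV206-GFP mice 1 to 5. H2afj encodes H2A.J, and its groups did not overlap. H2afj fell from a mean of 31.9 ± 6.75 CPM to 18.3 ± 3.34 CPM (SD, n = 5; -0.80 on the log2 scale, standard error 0.14, edgeR adjusted p = 0.00227). H2afx measured 41, 42.7, 53.9, 48.4 and 42.5 CPM in AAV2-GFP mice 1 to 5 and 27.4, 27.9, 30.8, 32 and 38.8 CPM in AAV206-GFP mice 1 to 5. H2afx, whose product H2A.X is phosphorylated at DNA breaks, is one of the 16 genes that are no members but carry the stem-loop consensus. It fell from a mean of 45.7 ± 5.37 CPM to 31.4 ± 4.58 CPM (SD, n = 5; -0.54 on the log2 scale, standard error 0.10, edgeR adjusted p = 0.00323), with no overlap. H2afv measured 56.9, 53.4, 69.4, 65.6 and 57.8 CPM in AAV2-GFP mice 1 to 5 and 43.2, 43.9, 42.2, 37.9 and 45.4 CPM in AAV206-GFP mice 1 to 5. H2afv, an H2A.Z gene, fell from a mean of 60.6 ± 6.6 CPM to 42.5 ± 2.82 CPM (SD, n = 5; -0.51 on the log2 scale, standard error 0.08, edgeR adjusted p = 0.000836), again with no overlap. H1f0, the linker histone of resting cells, fell from a mean of 63.7 ± 4.16 CPM to 53.4 ± 5.2 CPM (SD, n = 5; -0.25 on the log2 scale, standard error 0.08, edgeR adjusted p = 0.0404), but was kept in only 2 of 10 fits that left out 1 library (adjusted p up to 0.0985). The most abundant of the list did not pass: H3f3b, an H3.3 gene, was at 532 ± 57.4 CPM in AAV2-GFP mice against 518 ± 31.5 CPM in AAV206-GFP mice (SD, n = 5) and H3f3a, the other H3.3 gene, at 362 ± 41.1 CPM in AAV2-GFP mice against 315 ± 18.6 CPM in AAV206-GFP mice (SD, n = 5), or -0.04 (edgeR adjusted p = 0.753) and -0.20 (adjusted p = 0.0939) on the log2 scale.

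Of 32 listed genes that process histone messenger RNA, 29 were found and tested and 4 passed, all of them lower. That is 13.8%, beside 5.3% of all genes tested that passed as lower and 11.2% in either direction. The median log2 fold change of the 29 was -0.11. Ncbp2, a subunit of the cap-binding complex, fell from a mean of 63 ± 2.6 CPM to 50.04 ± 4.49 CPM (SD, n = 5; -0.33 on the log2 scale, standard error 0.07, edgeR adjusted p = 0.00648). Supt4a, a transcription elongation factor, had a log2 fold change of -0.50 (edgeR adjusted p = 0.0212), Srrt -0.35 (adjusted p = 0.0302) and Mif4gd, an SLBP partner in translation, -0.26 (adjusted p = 0.0396), and these 3 calls held in 7, 4 and 3 of 10 fits that left out 1 library. Slbp itself was at 22.4 ± 3.45 CPM in AAV2-GFP mice against 21 ± 1.46 CPM in AAV206-GFP mice (SD, n = 5) and did not pass (-0.09 on the log2 scale, standard error 0.11, edgeR adjusted p = 0.598). Npat, the activator of histone transcription at S phase, did not pass either (0.06 on the log2 scale, standard error 0.09, edgeR adjusted p = 0.721). Over fits that left out 1 library the count of lower processing genes ranged from 1 to 4.

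Of 50 cell cycle and DNA replication genes 35 were tested, 2 were lower and 1 higher (8.57%, beside 11.2% of all genes tested), at a median log2 fold change of -0.04. Ccnd1, cyclin D1, fell from a mean of 23.2 ± 1.59 CPM to 16.5 ± 2.28 CPM (SD, n = 5; -0.50 on the log2 scale, standard error 0.10, edgeR adjusted p = 0.00625). Pcna, the sliding clamp of DNA polymerase, fell from a mean of 57.9 ± 4.55 CPM to 47.3 ± 4.88 CPM (SD, n = 5; -0.29 on the log2 scale, standard error 0.08, edgeR adjusted p = 0.0276), kept in 5 of 10 fits that left out 1 library. Mcm10, a replication initiation factor, rose from a mean of 5.33 ± 1.01 CPM to 8.36 ± 2.45 CPM (SD, n = 5; 0.65 on the log2 scale, standard error 0.20, edgeR adjusted p = 0.0491), kept in 2 of 10. The division markers Mki67 and Top2a were under the filter, each with its highest value in AAV2-GFP mouse 1 (5.61 and 4.79 CPM) and at most 0.309 and 0 CPM in the other AAV2-GFP mice and 0.763 and 0.182 CPM with AAV206-GFP. Of 26 histone chaperone genes 25 were tested and 0 passed with edgeR (7 at an unadjusted p-value under 0.05, 4 with DESeq2 and 1 with limma-voom), at a median log2 fold change of 0.01.

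**Figure D5:**
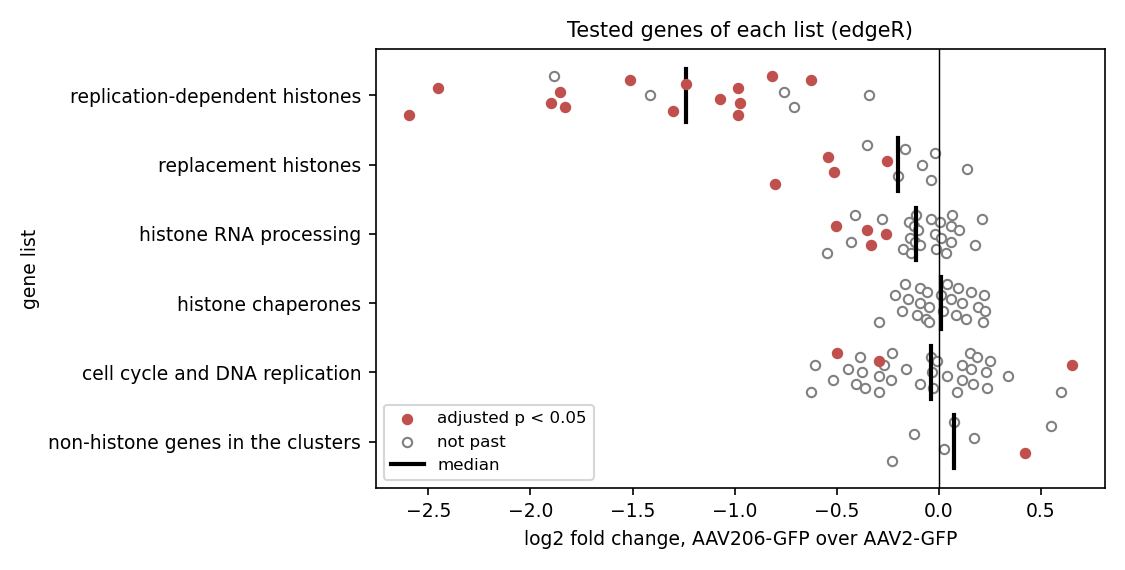
Log2 fold change of AAV206-GFP over AAV2-GFP for the tested genes of each list; filled red points passed an adjusted p-value of 0.05, open points did not, and black bars are list medians. The histone genes have a median of -1.24, the replacement histones -0.20, and the other lists lie near 0.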

How the data were processed

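RNA from 10 retinas, 5 in each vector group, was measured by paired-end sequencing of 150 bases. The values used were the authors' deposited estimated counts for each gene. STAR 2.7.10b, RSEM 1.3.1 and mm10 are named per the submitters' processing notes, without their roles, and the annotation behind the table is not given in the sources used here. GENCODE M21, used here for names and positions (build GRCm38), named 52029 of 57010 rows (91.3%). The total was 10989843 to 12752604 counts per library. Estimated counts divide reads shared between near-identical genes, so a member's level can be uncertain where its values carry decimals.

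Counts were rounded, filtered with filterByExpr (minimum count 10) and tested with edgeR 4.0.16 (quasi-likelihood F test, TMM, no covariates) in R 4.3.3, with Benjamini-Hochberg adjustment over 15539 genes and a threshold of 0.05. Positive log2 fold changes are higher with AAV206-GFP. DESeq2 1.42.0 and limma-voom (limma 3.58.1) were alternatives, as were other scaling, filters, a replicate block and leaving out libraries. The tests were tried on simulated data. Same-numbered mice did not vary together (correlations of their deviations -0.05 to 0.04). No pair of libraries in a group agreed within sampling noise.

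The members and lists were chosen with earlier results of these data known. The list of RNAs without a poly(A) tail, the neighbouring genes and the classes of RNA end (with limits of 60 and 40 bases) were added after the members' values were seen. Every member past the threshold is named with its value in each library, the other tested members by their fold change, and list genes where they passed. The planned protein sequences were not used here. All columns of the table were used.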

Additional observations from a re-analysis of the deposited data

Results flagged for a closer look

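In 48 sets of 5 mice (the tested members and family sums in each group), 17 had 1 mouse standing apart from the others by Dixon's criterion (gap over range above 0.71), where chance gives about 2.4. All 17 were high values, and they came from 2 mice. In AAV2-GFP mouse 1 they were Hist1h1d at 11.9 CPM, Hist1h1e at 21.3 CPM, Hist1h2ad at 2.21 CPM, Hist1h2be at 47.8 CPM, Hist1h2bg at 5.88 CPM, Hist1h3d at 10.5 CPM, Hist2h2aa2 at 87.7 CPM, Hist2h3c2 at 69.2 CPM and Hist2h4 at 13.2 CPM, with the H1 sum at 254 CPM, the H3 sum at 85.3 CPM and the H4 sum at 67.1 CPM. In AAV206-GFP mouse 5 they were Hist2h2aa2 at 47.9 CPM, Hist2h3c2 at 21.3 CPM and Hist3h2a at 175 CPM, with the H2A sum at 230.0 CPM and the H3 sum at 23.3 CPM. Members that share a family sum are counted in both, so these flags are not independent.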

How the results depend on the processing

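Of the 14 lower members, 12 passed in each alternative in which they were tested, and no tested member turned in sign. Among the list genes refitted, H3f3b, which had not passed, ranged from -0.080 to 0.012 on the log2 scale when 1 library was left out, above 0 without AAV2-GFP mouse 3. Hist2h4 passed in 11 of 19 alternatives and Hist4h4 in 12 of 18. The number of lower members was 12 with a replicate block, 11 of 13 tested with a minimum count of 30 and 12 to 16 when 1 library was left out. The pairing check gave no shared variation, so the block stands as a number only; the 2 calls missing under it were Hist2h4 (edgeR adjusted p = 0.0704) and Hist4h4 (adjusted p = 0.0682). Genes past the threshold over all genes numbered 1085 with the replicate block, 985 without AAV2-GFP mice 1 and 4, and 991 to 1912 when 1 library was left out. The cell cycle list gave 1 gene without AAV2-GFP mice 1 and 4 and 1 to 3 when 1 library was left out, and the RNA processing list 2 and 1 to 4. The chaperone list gave 1 gene by library size only, 3 with a minimum count of 30, 4 with DESeq2, 1 with limma-voom and 0 to 2 when 1 library was left out. With only members of whole counts, the summed log2 ratio was -0.17 for H2A, -0.51 for H2B and -2.96 for H3, where few counts remain for H2A and H3. When 1 library was left out, the summed ratios ranged from -1.36 to -1.17 for H1, -1.03 to -0.81 for H2A, -1.01 to -0.87 for H2B, -2.11 to -1.65 for H3 and -1.68 to -1.15 for H4. The causes of these shifts were not tested. Depth limits the 48 untested members, with group means of at most 2.37 CPM.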

Other observations

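H1foo, the linker histone gene of the oocyte, lies outside the clusters and was under the filter, and it was picked after its values were seen. Its counts were 1, 1, 5, 0 and 3 in AAV2-GFP mice 1 to 5 and 16, 25, 9, 11 and 13 in AAV206-GFP mice 1 to 5, so the groups did not overlap. The means were 0.165 ± 0.155 and 1.298 ± 0.586 CPM (SD, n = 5). Its mean was higher in AAV206-GFP retinas.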
